A study of Drosophila melanogaster with 6 samples.

Results

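Cytochrome P450 genes, whose symbols begin with Cyp followed by a family number, a subfamily letter and a gene number, were followed across 2-colour spotted cDNA arrays of Drosophila melanogaster material exposed to methotrexate, an antifolate drug that blocks the reduction of folate. Members were taken by a symbol rule, after older names had been updated through the Entrez gene number, and no measured value entered that rule. The members were, however, chosen with earlier results of these data known. The S3 design held 72 P450 genes of 6795 named genes, and the ovary design held 4 of 2377. Across both designs 73 members were found, 3 of them on both, and 85 genes with symbols of this form are in the RefSeq annotation of Release 6 of the genome. P450 genes that carry other names are not counted as members. The ecdysone-making phm, dib, sad, shd, spo and spok are such genes, and none of them was measured on either design.

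S3 is a cultured Drosophila cell line. Treated S3 cells had received 5.2e-08 M methotrexate for 4 days and were compared with untreated S3 cells on 4 arrays. Treated ovaries came from flies given 5 ppm methotrexate for 5 days and were compared with ovaries of untreated flies on 2 arrays. The labels do not say whether the RNAs of a group came from separate cultures or flies, so the p-values cover the spread from array to array alone, which may be technical. The strain and age of the flies are not stated in the sources used here.

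P450 enzymes are heme proteins that insert an oxygen atom into small, mostly fatty molecules. Most insect P450s sit in the endoplasmic reticulum and take electrons from a P450 reductase, with cytochrome b5 as an occasional helper, while those of the mitochondrial clan take them from a ferredoxin. Some members make or break down the moulting hormone ecdysone, some make cuticle hydrocarbons, and many of the CYP3 and CYP4 clans and of the Cyp12 family act on plant toxins and insecticides.

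Each value is a log ratio of the channels of 1 array, taken as log2, and carries no level. A positive or negative sign therefore names the side of the ratio and not a rise or fall under methotrexate, because the sources used here do not give the numerator. By the labels the treated S3 RNA was in channel 2 with Cy3 on arrays 1, 3 and 4, and in channel 2 with Cy5 on array 2. The S3 means below are those of arrays 1, 3 and 4, which hold the treated RNA in the same channel and dye, and array 2 is given beside them, centred alike, with its sign as deposited. Its sign relative to the other arrays is not settled. Across genes, which are not independent replicates and share the array design, the S3 arrays correlated weakly with each other (r of 0.0616 to 0.179), whereas the ovary arrays had an r of 0.753. The values hold no signal strength, and the number of arrays limits the precision. With ratios alone, the cell type of the samples could not be checked against the level of its markers, and fewer cells of a type and less RNA per cell cannot be told apart.

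P450 genes in S3 cells lay mostly on the negative side. Of the 72 members 52 had a negative mean log2 ratio, or 72.2%, against 51.7% of the 6772 genes tested. The median over the members was -0.20, against -0.01 over all genes, and the member means ran from -0.997 (Cyp12d1-d) to 0.54 (Cyp313a3). All 72 members had a value on every array, so none was lost to a filter.

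No single P450 gene passed in S3 cells. The mean of each gene was tested against 0 with limma over all genes with Benjamini-Hochberg adjustment and a threshold of 0.05. In this fit 0 of 72 members passed, and 1 gene of 6772 did, or 0.0148%. That gene was CG15347 at -2.74 ± 0.30 (SD, n = 3, limma adjusted p = 0.0118), which is no P450. The lowest adjusted p of a member was 0.472, for Cyp6a8. At an unadjusted p under 0.05 there were 12 negative members, or 16.7%, against 5.67% of all genes, and 0 positive members, against 2.73% of all genes. The number of calls depended on single arrays. Without array 3 or without array 4, 0 genes passed. Without array 1, 36 of 6780 genes passed, among them Cyp12d1-d at -1.37 ± 0.70 (limma adjusted p = 0.0329) and Cyp317a1 at -1.39 ± 2.35 (limma adjusted p = 0.0487, SD, n = 2 each). The 2 arrays behind Cyp317a1 had opposite signs, at -3.05 on array 3 and 0.27 on array 4, and with 1 residual degree of freedom the p-values of this fit lean on the spread shared between genes.

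The arrays differed in how far the P450 genes stood apart. Negative values were found for 40 of 72 members on array 1, against 50.0% of all genes, for 53 on array 3, against 48.6%, and for 51 on array 4, against 54.1%. On array 2 as deposited 44 members were negative, against 48.3% of all genes. The member medians were -0.05, -0.23 and -0.24 on arrays 1, 3 and 4 and -0.11 on array 2, whereas the medians of all genes lay between -0.06 and 0.02. Array 1 thus stood nearest to the rest of the genes. Taken gene by gene, 22 members were negative on all of arrays 1, 3 and 4, against 16.8% of all genes, and 3 were positive on all of them (Cyp6a23, Cyp313a5 and Cyp4e3), against 15.7%.

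**Figure D1:**
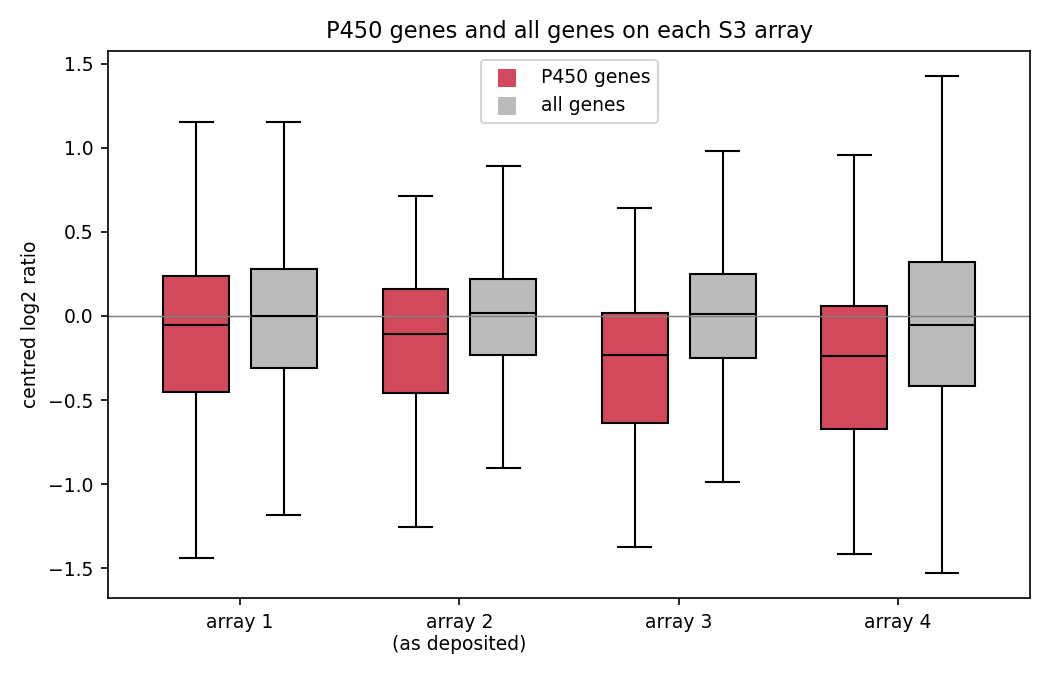
Centred log2 ratios of the 72 P450 genes (red) and of all genes tested (grey) on each S3 array. Boxes give the quartiles with the median as a line, whiskers reach the farthest value within 1.5 box lengths, and points beyond are not drawn. The P450 medians lie at -0.05, -0.11, -0.23 and -0.24 on arrays 1 to 4, below the medians of all genes on each array.

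The number of negative members moved with the centring and with array 2. With values as deposited and no centring, 39 of 72 members were negative, against 39.5% of all genes, and the median was -0.07, against 0.08 over all genes. With array 2 averaged in, 56 members were negative as deposited and 48 with its sign turned (median -0.10).

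**Figure D2:**
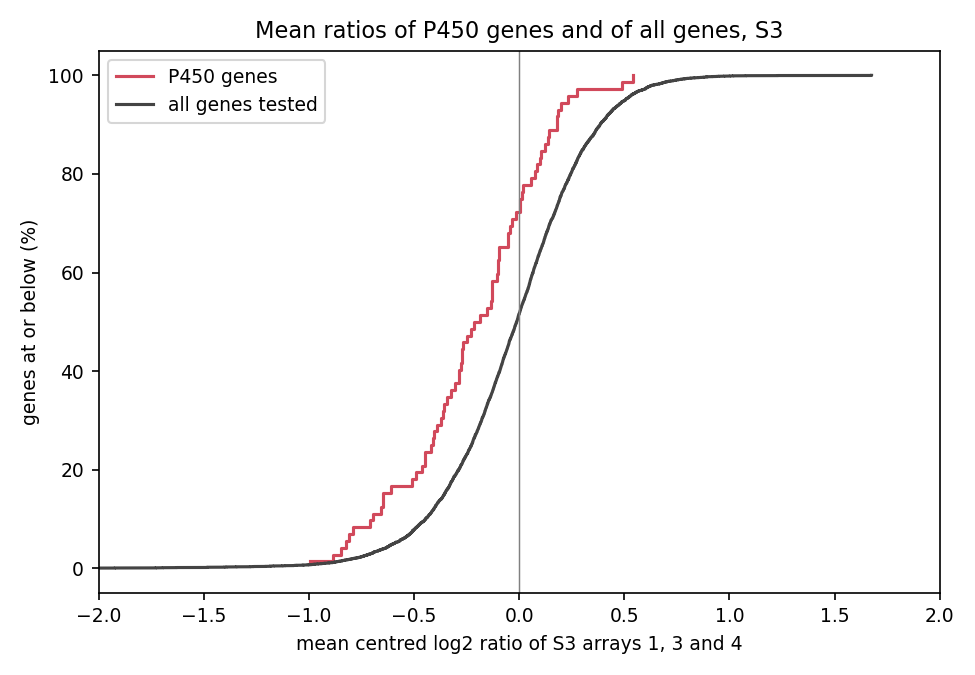
Share of genes (y axis, %) with a mean log2 ratio of S3 arrays 1, 3 and 4 at or below the value on the x axis, which is cropped at -2 and 2. The line of the 72 P450 genes (red) reaches 72.2% at a ratio of 0, and the line of the 6772 genes tested (dark grey) reaches 51.7%.

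The mitochondrial clan, which in flies joins ecdysone-making enzymes with the insecticide-related Cyp12 family, had the lowest median of the clans. On the S3 design it held 6 Cyp12 genes and Cyp301a1, and no ecdysone-making enzyme was among them. Of its 7 members on the S3 design 6 were negative, against 51.7% of all genes, at a median of -0.65. Of the 7, 4 were negative at an unadjusted p under 0.05 in the limma fit, against 5.67% of all genes. The 65 microsomal members had 46 negative and a median of -0.18. Among the microsomal clans, 27 of 33 CYP3 members were negative (median -0.28), as were 18 of 29 CYP4 members (median -0.10) and 1 of 3 CYP2 members (median 0.0035). The difference between clans was not tested.

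**Figure D3:**
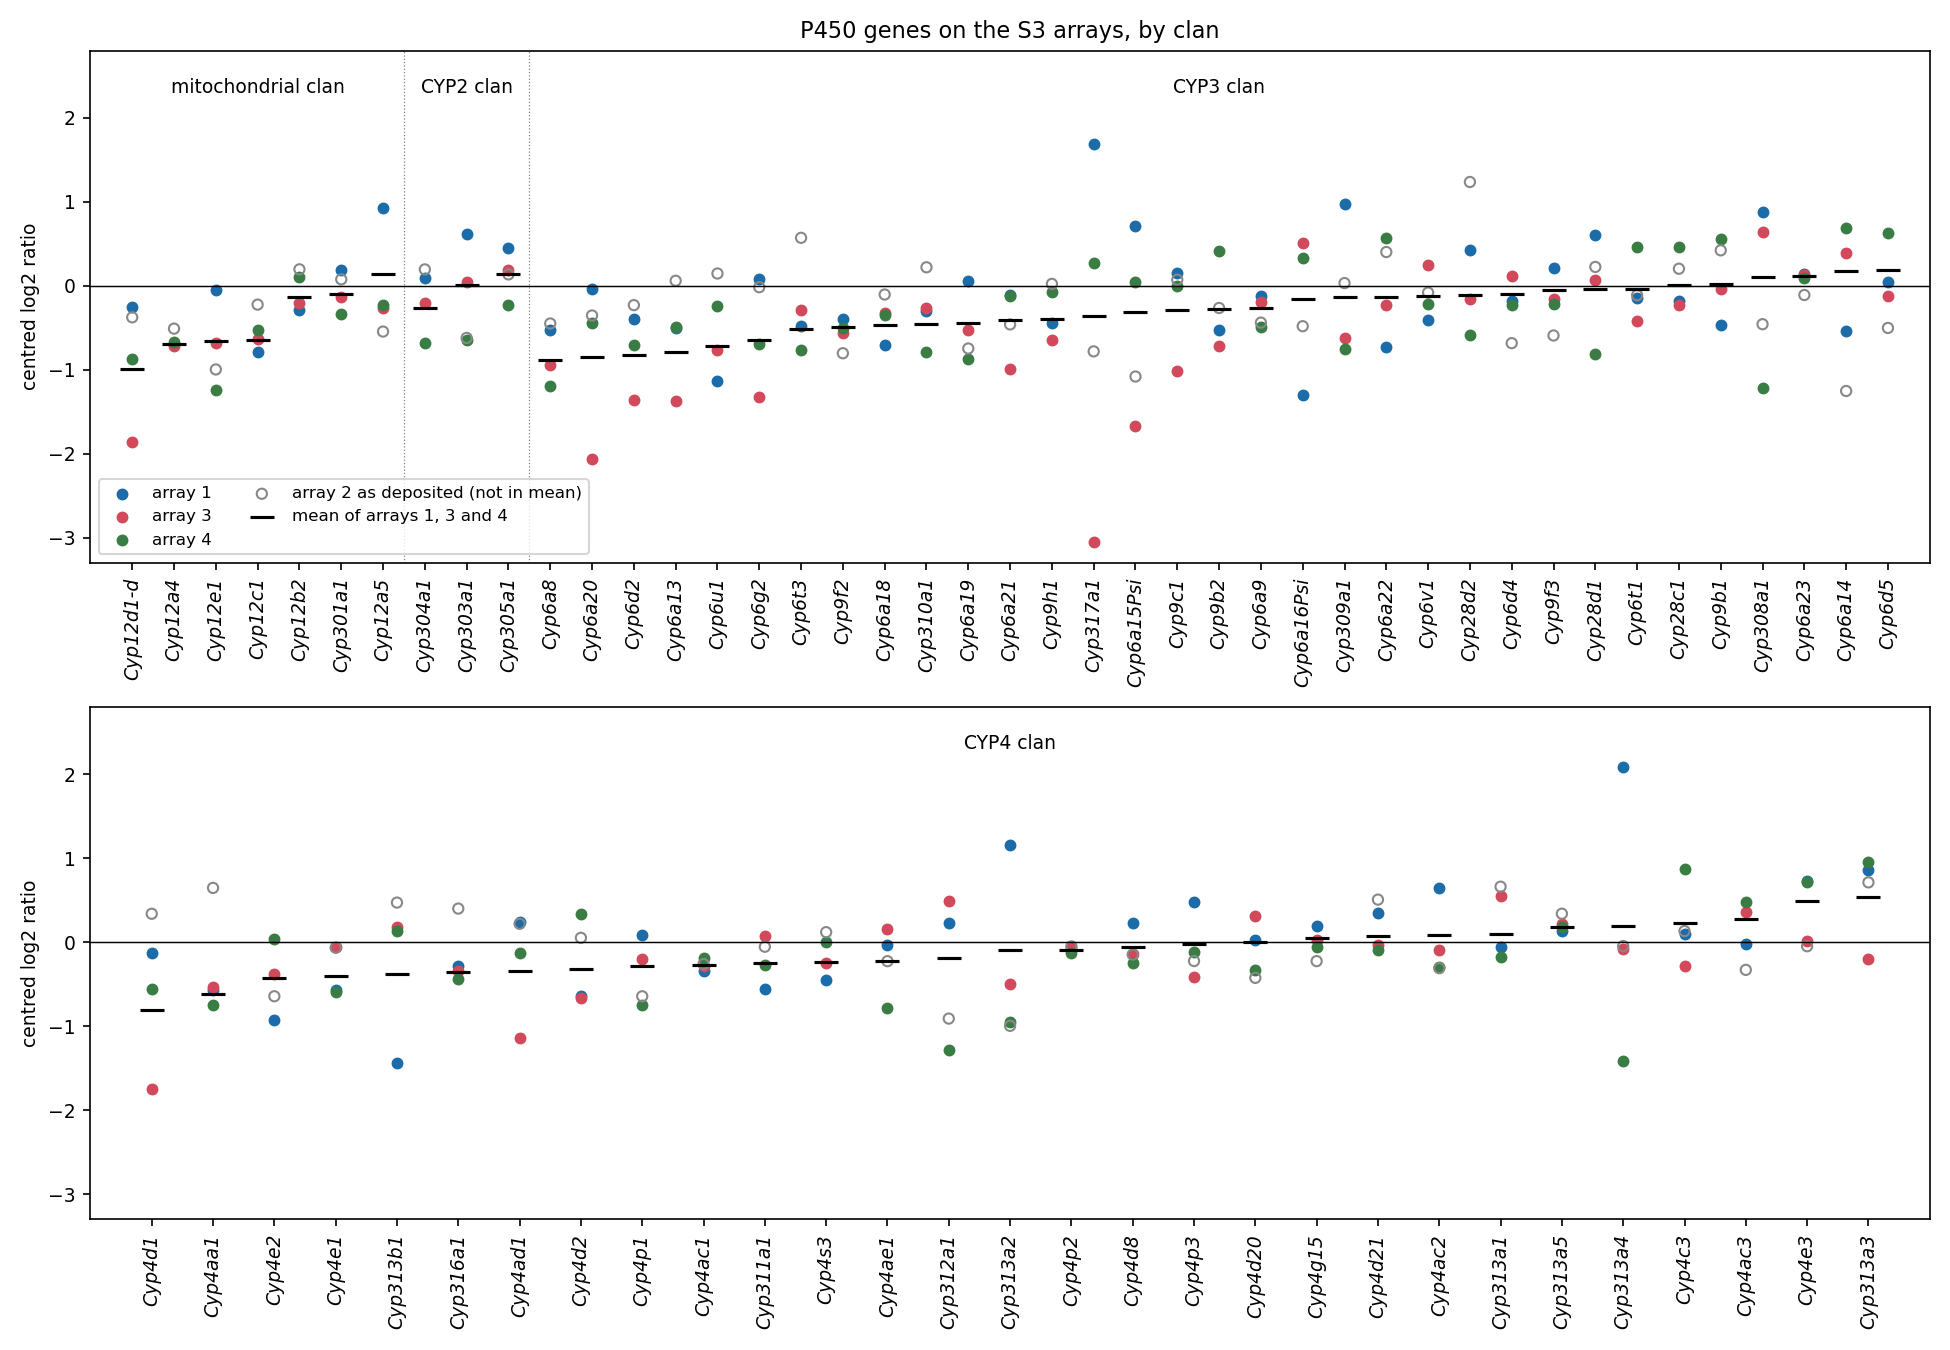
Centred log2 ratios of all 72 P450 genes on the S3 arrays, grouped by clan and sorted by mean. Filled points are arrays 1 (blue), 3 (red) and 4 (green), open points are array 2 as deposited, and black bars are the means of arrays 1, 3 and 4. The mitochondrial means run from -0.997 to 0.14, and Cyp317a1 has the widest points, from -3.05 on array 3 to 1.69 on array 1.

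Values are given below in the order of arrays 1, 3 and 4, followed by array 2. Cyp12d1-d, a Cyp12 gene induced by several toxic compounds and linked to DDT resistance, had log2 ratios of -0.26, -1.86 and -0.87, and of -0.38 on array 2, and averaged -0.997 ± 0.81 (SD, n = 3, limma adjusted p = 0.586). All 4 arrays were negative, and array 3 held the lowest value. This gene has a near-identical tandem copy, Cyp12d1-p, and a cDNA spot may bind transcripts of both. Cyp12a4, whose overexpression gives resistance to the insecticide lufenuron, had ratios of -0.69, -0.72 and -0.67, and of -0.51 on array 2. Its mean of -0.69 ± 0.03 (SD, n = 3, limma adjusted p = 0.586) had the narrowest spread between arrays of the mitochondrial members. Its spots agreed less: the 3 pairs averaged -0.96 to -0.27, and the spots of array 4 ran from -1.86 to 0.35.

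Cyp12c1 had ratios of -0.78, -0.63 and -0.53, and of -0.22 on array 2 (mean -0.65 ± 0.13, SD, n = 3). It was negative throughout, although 1 of its 2 pairs of spots averaged -1.54 and the other 0.25. Cyp12e1 had -0.048, -0.68 and -1.24, and -0.997 on array 2 (mean -0.66 ± 0.59, SD, n = 3). Averaged over spots, array 1 was close to 0 for Cyp12e1 and the other arrays were not. Its 2 spots lay apart on array 1 (0.64 and -0.74) and on array 4 (-2.21 and -0.27). Without the array 4 spot at -2.21 the mean was -0.33. Cyp12b2 had -0.29, -0.20 and 0.11, and 0.20 on array 2 (mean -0.13 ± 0.21, SD, n = 3), with both signs among the arrays. Cyp12a5, next to Cyp12a4 in the genome, had 0.92, -0.27 and -0.23, and -0.55 on array 2 (mean 0.14 ± 0.68, SD, n = 3). Its positive mean came from 1 spot of array 1 at 3.64, and without that spot the mean was -0.16.

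Members linked to hormones or development were described as a class of 4 genes, of which 3 were negative at a median of -0.27. Cyp301a1, the mitochondrial member needed to form the adult cuticle, had ratios of 0.18, -0.14 and -0.34, and of 0.077 on array 2 (mean -0.10 ± 0.27, SD, n = 3). Cyp6t3, which is needed in the prothoracic gland for normal ecdysone production, had -0.48, -0.29 and -0.76, and 0.57 on array 2 (mean -0.51 ± 0.24, SD, n = 3). Arrays 1, 3 and 4 were negative for Cyp6t3, whereas array 2 was positive. Cyp310a1 had -0.30, -0.26 and -0.79, and 0.22 on array 2 (mean -0.45 ± 0.29, SD, n = 3). Its 3 pairs of spots averaged -0.80 to 0.12, and its spots on array 1 ran from -2.03 to 1.08. Cyp303a1, needed for the sensory bristles, had 0.61, 0.041 and -0.64, and -0.62 on array 2, and its mean was 0.0035 ± 0.63 (SD, n = 3). Its arrays fell on both sides of 0.

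Members linked to xenobiotics were 5 genes, 4 of them negative, at a median of -0.69. Besides Cyp12d1-d and Cyp12a4 these were Cyp6a8, Cyp6g2 and Cyp6d5. Cyp6a8, which is induced by drugs such as barbital and is overexpressed in DDT-resistant strains, had ratios of -0.52, -0.94 and -1.20, and of -0.45 on array 2 (mean -0.89 ± 0.34, SD, n = 3, limma adjusted p = 0.472). All of its arrays were negative, as were all of its 3 pairs of spots when averaged over arrays 1, 3 and 4 (-1.16 to -0.42). On array 1 alone the spots of 1 pair were at 1.02 and -0.48. Cyp6g2, able to confer insecticide tolerance when overexpressed, had 0.085, -1.33 and -0.70, and -0.017 on array 2 (mean -0.65 ± 0.71, SD, n = 3). Averaged over spots, arrays 1 and 2 were near 0 for Cyp6g2. The 2 spots of Cyp6g2 lay apart on array 1 (-0.81 and 0.98) and on array 3 (0.15 and -2.81). They lay nearer on array 4 (-0.76 and -0.64). Cyp6d5 had 0.040, -0.12 and 0.63, and -0.50 on array 2 (mean 0.19 ± 0.40, SD, n = 3), with no common side. Its 2 pairs of spots averaged -0.25 and 0.71.

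The CYP3 clan held the Cyp6 family, with 17 of 20 members negative (median -0.36), the Cyp9 family, with 5 of 6 (median -0.28), and the Cyp28 family, with 2 of 3 (median -0.04). Within Cyp6, the Cyp6a subfamily had 10 of 12 members negative, at a median of -0.36 and a range of -0.89 to 0.18. Cyp6d2 had ratios of -0.40, -1.36 and -0.71, and of -0.23 on array 2 (mean -0.82 ± 0.49, SD, n = 3). Its 2 pairs of spots disagreed, at -1.88 and 0.24. Cyp6a13 had -0.51, -1.38 and -0.49, and 0.060 on array 2 (mean -0.79 ± 0.51, SD, n = 3). Over arrays 1, 3 and 4 its 2 pairs both averaged -0.79, but they differed on single arrays. On array 1 the spots of 1 pair were at 0.55 and -0.27 and those of the other at -1.29 and -1.02. On array 4 the same pairs were at -0.27 and -1.89 and at -0.01 and 0.22.

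Cyp6u1 had -1.13, -0.76 and -0.24, and 0.15 on array 2 (mean -0.71 ± 0.45, SD, n = 3). Cyp9f2 had -0.40, -0.57 and -0.50, and -0.80 on array 2 (mean -0.49 ± 0.09, SD, n = 3), and was among the members negative on all 4 arrays. The 3 pairs of spots of Cyp9f2 averaged -0.96 to -0.01, and its spots on array 3 ran from -2.67 to 2.04. Cyp6a20, known for its effect on aggression between males, had -0.042, -2.06 and -0.44, and -0.35 on array 2 (mean -0.85 ± 1.07, SD, n = 3). Array 3 set most of the mean of Cyp6a20. The limma adjusted p of Cyp6d2, Cyp6a13, Cyp6u1, Cyp9f2 and Cyp6a20 was 0.586 each.

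The CYP4 clan was more evenly divided, with 13 of 20 members of the Cyp4 family negative (median -0.16) and 2 of 6 of the Cyp313 family (median 0.14). Cyp4d1 had ratios of -0.13, -1.75 and -0.55, and of 0.34 on array 2 (mean -0.81 ± 0.84, SD, n = 3). Its array 3 value rests on 1 spot at -8.40, where the other 3 spots lay between -0.34 and 0.90. Without that spot the array 3 value was 0.47 and the mean -0.073. Cyp4aa1 had -0.57, -0.53 and -0.74, and 0.65 on array 2 (mean -0.61 ± 0.11, SD, n = 3). Averaged over spots, arrays 1, 3 and 4 lay close together for Cyp4aa1, and array 2 lay on the other side of 0. The 2 spots of Cyp4aa1 lay apart on array 1 (-0.06 and -1.07) and on array 4 (0.16 and -1.64). They lay nearer on array 3 (-0.66 and -0.40) and on array 2 (0.69 and 0.61).

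The members of the clan with the most positive means were Cyp313a3, Cyp4e3 and Cyp4ac3. Cyp313a3 had 0.86, -0.20 and 0.96, and 0.71 on array 2 (mean 0.54 ± 0.64, SD, n = 3, limma adjusted p = 0.611). Cyp4e3 had 0.74, 0.016 and 0.72, and -0.047 on array 2 (mean 0.49 ± 0.41, SD, n = 3, limma adjusted p = 0.598). The pairs of spots of Cyp4e3 had means of -0.34 and 1.32. Cyp4ac3 had -0.014, 0.36 and 0.48, and -0.33 on array 2 (mean 0.27 ± 0.26, SD, n = 3). Cyp4e1, a neighbour of Cyp4e2 in the genome, had -0.57, -0.056 and -0.59, and -0.064 on array 2 (mean -0.40 ± 0.30, SD, n = 3).

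Cyp4g15, a relative of the hydrocarbon-forming Cyp4g1 enzyme, had ratios of 0.19, 0.029 and -0.053, and of -0.22 on array 2 (mean 0.055 ± 0.12, SD, n = 3). This mean near 0 averages 2 pairs of spots of opposite sign, at -0.39 and 0.50, each with its own sign on every array. Cyp4d21, expressed in the male head and linked to courtship, had 0.35, -0.032 and -0.086, and 0.51 on array 2 (mean 0.076 ± 0.24, SD, n = 3). Neither gene had a common sign over arrays 1, 3 and 4.

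Cyp4ac1 had -0.35, -0.28 and -0.19, and -0.26 on array 2 (mean -0.27 ± 0.08, SD, n = 3, limma adjusted p = 0.709). Its 2 pairs of spots averaged -0.73 and 0.19, so the negative values came mainly from 1 pair. The CYP2 clan, which in insects holds ecdysone-making enzymes, was represented by 3 genes, with none of those enzymes among them. Cyp304a1 had ratios of 0.091, -0.21 and -0.69, and of 0.20 on array 2 (mean -0.27 ± 0.39, SD, n = 3). Cyp305a1 had 0.45, 0.19 and -0.23, and 0.14 on array 2 (mean 0.14 ± 0.34, SD, n = 3). Its 2 pairs of spots averaged -0.43 and 0.70. With Cyp303a1, all 3 CYP2 genes had values on both sides of 0.

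The members not given array by array had means between -0.46 (Cyp6a18) and 0.23 (Cyp4c3). By subfamily, the Cyp313a genes had 1 of 5 negative (median 0.18), the Cyp4d genes 3 of 5 (median -0.05), the Cyp4e genes 2 of 3 (median -0.40) and the Cyp4p genes 3 of 3 (median -0.09). The Cyp4ac genes had 1 of 3 negative (median 0.087) and the Cyp6d genes 2 of 3 (median -0.10). Symbols of 2 members, Cyp6a15Psi and Cyp6a16Psi, name pseudogenes, and without them 50 of 70 members were negative.

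Many P450 genes lie next to each other in the genome, in runs of related copies. The longest run, with at most 2 other genes between neighbours in the RefSeq annotation, held 8 measured members of 9 (Cyp6a22, Cyp6a23, Cyp6a19, Cyp6a9, Cyp6a20, Cyp6a21, Cyp6a8 and Cyp317a1). In that run 7 of 8 were negative, at a median of -0.39, with Cyp6a23 (0.12 ± 0.02, SD, n = 3) on the other side. The 3 pairs of spots of Cyp6a23 averaged -0.28 to 0.83, and its spots on array 4 ran from -1.42 to 1.01. The runs of Cyp4ad1, Cyp4e2 and Cyp4e1 and of Cyp4d1, Cyp4d2 and Cyp4ae1 each had 3 of 3 negative, as did the Cyp4p genes. The runs of Cyp4ac1, Cyp4ac2 and Cyp4ac3 (median 0.087) and of Cyp313a5, Cyp313a2 and Cyp313a3 (median 0.18) had 1 of 3 negative, and those of Cyp9b1 and Cyp9b2 and of Cyp12a5 and Cyp12a4 had 1 of 2. Since related copies can bind to each other's spots, members of a run are not independent observations.

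P450 genes were spotted more often than other genes on the S3 design. More than 1 pair of neighbouring spots was present for 51 of 72 members, or 70.8%, against 10.1% of all genes. Of those 51 members 38 had a negative mean (median -0.23), as did 14 of the 21 members with 1 pair (median -0.15). All genes with more than 1 pair had 52.8% negative and a median of -0.02. In 21 of the 51 members every pair was negative, or 41.2%, against 29.0% of the 686 genes with more than 1 pair, and in 2 every pair was positive, against 24.6%. The other 28 members had pairs of opposite sign, and without them 35 of 44 members were negative (median -0.29). With the median in place of the mean of the spots of a gene, a choice made after the data were seen, 53 of 72 members were negative (median -0.21). Single spots weighed on single genes: without the 1 spot value that moved it most, the mean of 16 of the 29 genes given array by array changed sign (Cyp12a5 and Cyp4g15) or moved by over 1.5 times, among them Cyp6d2 (-0.54 without it) and Cyp4e3 (0.24 without it). Other members changed sign too. From the negative side these were Cyp28d1, Cyp28d2, Cyp309a1, Cyp313a2, Cyp317a1, Cyp4p2, Cyp6a15Psi, Cyp6a16Psi, Cyp6a22, Cyp6d4, Cyp6t1 and Cyp6v1. From the positive side they were Cyp28c1, Cyp308a1, Cyp313a4 and Cyp6a14. The number of negative members was not recounted without such spots.

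**Figure D4:**
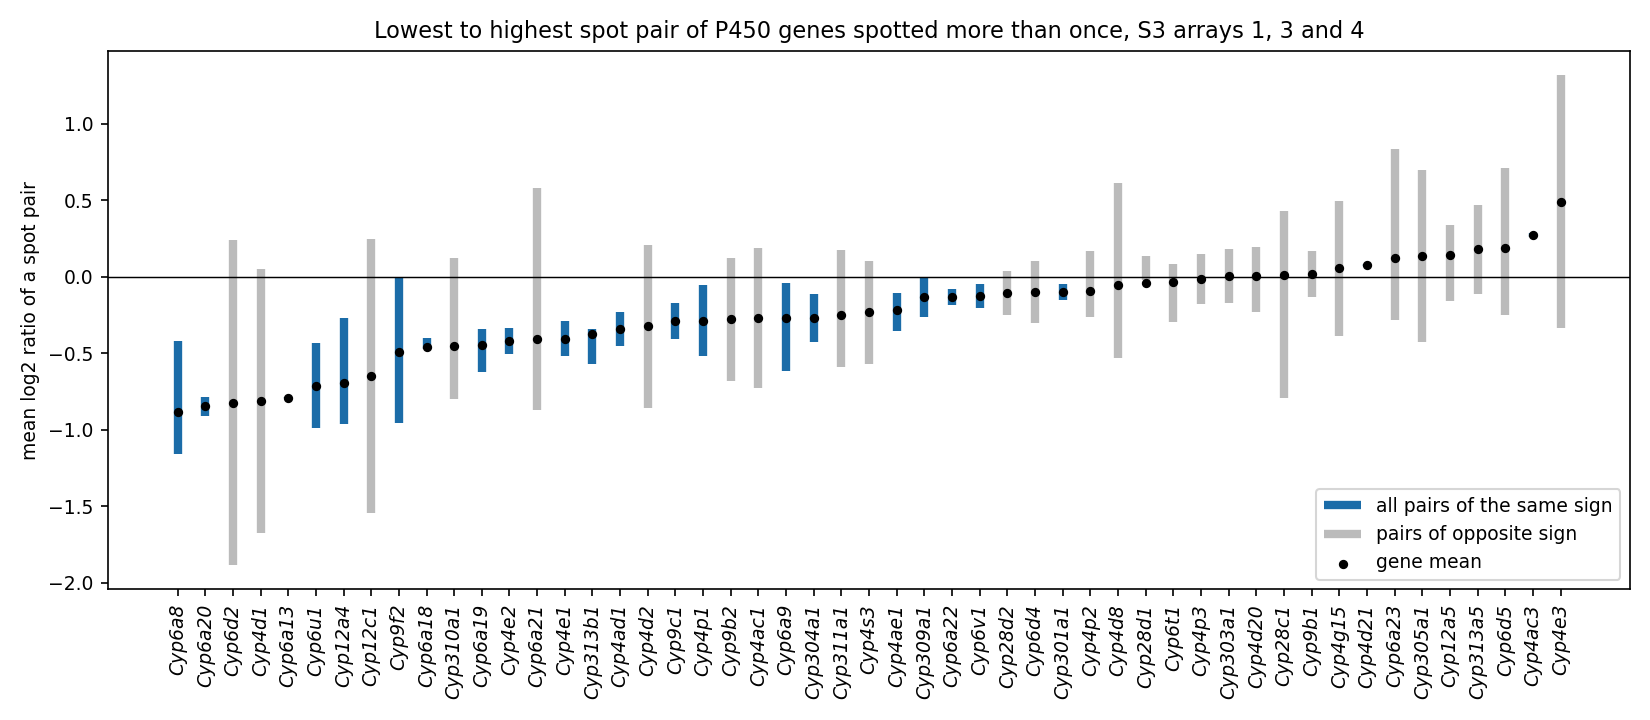
Range between the lowest and the highest spot pair mean (log2 ratio over S3 arrays 1, 3 and 4) for the 51 P450 genes with more than 1 pair, sorted by gene mean (black points). Blue bars have all pairs on the same side of 0 and grey bars cross 0. Of the 23 genes on a single side 21 are negative.

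Where on the slide the spots lay was also examined. Of the 268 member spots, spread over 44 of 48 print blocks, 132 had a spot of another member within 6 spots. Spots of other genes within 24 spots of a member had medians of -0.03, 0.008 and 0.12 on arrays 1, 3 and 4. With the neighbouring median subtracted from each member spot, a choice made after the data were seen, 55 of 72 members were negative, at a median of -0.24. The arrays varied more in P450 genes than in genes at large: the median SD over arrays 1, 3 and 4 was 0.448 for the members and 0.362 for all genes.

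Genes that work beside the P450 enzymes were measured on the same arrays, and 0 of them passed in S3 cells. Glutathione S-transferases, which attach glutathione to reactive compounds, were negative for 16 of 23 genes (median -0.26). The lowest p among them belonged to GstO3 at -0.98 ± 0.41 (SD, n = 3, limma adjusted p = 0.449), followed by GstD3 at -0.61 ± 0.18 (SD, n = 3). UDP-glycosyltransferases, which attach sugars, were negative for 7 of 12 genes (median -0.05), with Ugt49B1 at 0.79 ± 0.47 and Ugt35D1 at -0.47 ± 0.42 (SD, n = 3 each).

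The list of electron donors, drawn up by symbol, had 2 genes, both negative, with Cyt-b5-r at -0.38 ± 0.20 and the ferredoxin Fdx2 at -0.0026 ± 0.71 (SD, n = 3 each). Whether Cyt-b5-r gives electrons to P450 enzymes was not tested. Regulators of xenobiotic genes were divided, 2 of 4 negative, with maf-S at 0.21 ± 0.37 and Keap1 at 0.056 ± 0.18 (SD, n = 3 each). The partners of the ecdysone receptor were usp at 0.19 ± 0.05 and EcR at -0.16 ± 0.24 (SD, n = 3 each). Juvenile hormone genes were negative for 3 of 3 genes (median -0.33), with jhamt at -0.33 ± 0.79 and Jhedup at -0.35 ± 1.25 (SD, n = 3 each).

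Markers of other cell types were few: 4 of 6 fat body genes (median -0.21), 3 of 4 hemocyte genes (median -0.25) and 2 of 2 germline genes (median -0.36) were negative in S3 cells, and 0 passed. The single muscle gene, Act88F, stood at 0.15 ± 0.24 (SD, n = 3). The part of these cell types in the P450 values was not tested.

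Of the 4 P450 genes on the ovary design, 3 passed, 2 on the positive and 1 on the negative side. Among all genes tested there 20.9% passed on the positive and 18.0% on the negative side, so passing was common. With 1 residual degree of freedom limma gave every gene the same standard error, and the p-values rest on that shared spread. By the labels Cy5 marked the treated RNA on both ovary arrays, with its channel changed from 1 to 2 between them, so that dye and treatment cannot be told apart. The description of the series says instead that the dyes were swapped between these arrays. With the sign of array 2 turned, 0 members passed.

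Cyp6u1 had log2 ratios of 1.95 and 1.47 on ovary arrays 1 and 2 (mean 1.71 ± 0.34, SD, n = 2, limma adjusted p = 6.02e-08). Of all ovary genes, 99.0% had a lower mean. Cyp12d1-p, the tandem copy of Cyp12d1-d, had 1.08 and 0.93 (mean 1.003 ± 0.11, SD, n = 2, limma adjusted p = 0.00208), and 89.2% of genes lay lower. Both arrays were positive for these members. Cyp4ac1 had -0.87 and -0.47 (mean -0.67 ± 0.28, SD, n = 2, limma adjusted p = 0.0416), and 16.6% of genes lay lower. Without centring its mean was -0.59 and it did not pass (limma adjusted p = 0.0805).

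Cyp4g15 had -0.24 and 0.73, on opposite sides of 0 (mean 0.24 ± 0.69, SD, n = 2, limma adjusted p = 0.475). Centring on print blocks and rows left the same 3 members past the threshold, 2 positive against 17.8% of all genes and 1 negative against 14.5%. The means were then 1.76 ± 0.37 for Cyp6u1, 0.80 ± 0.04 for Cyp12d1-p and -0.85 ± 0.12 for Cyp4ac1 (SD, n = 2 each).

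**Figure D5:**
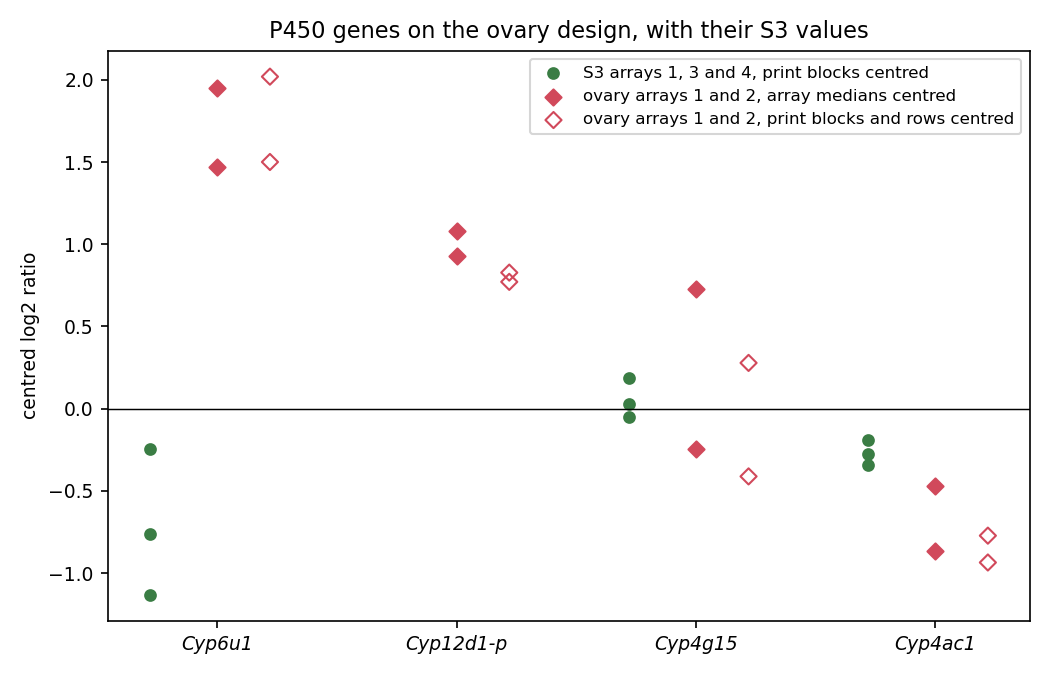
Centred log2 ratios of the 4 P450 genes on the ovary design: S3 arrays 1, 3 and 4 (green circles), ovary arrays with array medians centred (filled diamonds) and ovary arrays with print blocks and rows centred (open diamonds). Cyp6u1 lies between -1.13 and -0.24 in S3 cells and at 1.47 and 1.95 in ovaries, Cyp4ac1 is negative in both, and Cyp12d1-p has no S3 value.

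Set side by side for the 3 genes on both designs, Cyp6u1 averaged -0.71 in S3 cells and 1.71 in ovaries, Cyp4ac1 averaged -0.27 in S3 cells and -0.67 in ovaries, and Cyp4g15 averaged 0.055 in S3 cells and 0.24 in ovaries. The tables were made separately and the direction of each ratio is unknown, so the difference in sign for Cyp6u1 is given as a description only.

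In ovaries, Cyt-b5-r was the only gene of the electron donor list measured and was negative, at -0.89 ± 0.04 (SD, n = 2, limma adjusted p = 0.00639). It was listed by its symbol, and whether it gives electrons to P450 enzymes was not tested. On the negative side 18.0% of all ovary genes passed, and this share belongs beside each call of this paragraph. The share of negative means over all ovary genes was not counted. Among 3 glutathione S-transferases 1 passed, GstZ2 at -0.97 ± 0.16 (SD, n = 2, limma adjusted p = 0.00304). Of 7 UDP-glycosyltransferases 6 were negative (median -0.55) and 2 passed, Ugt37A1 at -1.05 ± 0.65 (limma adjusted p = 0.00124) and Ugt35D1 at -0.81 ± 0.03 (SD, n = 2 each, limma adjusted p = 0.0130). Keap1, a sensor of reactive compounds, averaged -0.22 ± 0.45 (SD, n = 2) and did not pass. The fat body gene Fbp2 (-0.42 ± 0.77) and the muscle genes up and Act88F (median -0.44) did not pass, and their part in the P450 values was not tested.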

How the data were processed

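The authors deposited 1 log ratio per spot and array, taken here as log2, per the labels from 2-colour spotted cDNA arrays. Base, numerator, background correction and normalisation are not given in the sources used here. Spots took their genes from the platform annotation, and older symbols were replaced through the Entrez number by those in the RefSeq table of Release 6 (71 of 72 S3 members matched, as did 4 of 4 ovary members). No genomic position is printed, because no build belongs to these values.

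Print blocks (48 of 576 spots for S3, 32 of 528 for ovary) are not stated and were read from the period of the values. Block medians took up 3.58% to 18.8% of the spot variance on the S3 arrays. S3 blocks and ovary arrays were centred on their medians. Spots of 1 gene were averaged, and means were tested against 0, two-sided, with limma 3.58.1 in R 4.3.3 (6772 S3 and 2377 ovary genes). Tables and plots used Python 3.11.15, pandas 2.3.3 and matplotlib 3.10.9. The limma step was tested on simulated data.

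Members, classes and lists were chosen with earlier results of these data known. Values on every array are given for mitochondrial, hormone, xenobiotic, hydrocarbon, behaviour and ovary-design members, for the 5 lowest p in each other clan, and for the 3 largest positive means. Up to 2 genes of lowest p are named per list. Neighbouring runs, pairs of spots and members that passed without array 1 were named after their values were seen. Alternatives were other centring, array 2 averaged in, equal scale, spots, a robust variance prior, a threshold of 0.10 and each array left out.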

Additional observations from a re-analysis of the deposited data

Results flagged for a closer look

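Cyp4aa1 had a value on S3 array 2 that stood apart from the other arrays: 0.65 as deposited, against -0.57, -0.53 and -0.74 on arrays 1, 3 and 4. The gap of the highest value to the next, relative to the range of the 4 values, passed the 95% limit of Dixon's test. Of 29 genes checked this way 1 was marked, and chance marks about 1 in 20. The values of arrays 1 and 4 average 2 spots that lay apart, at -0.06 and -1.07 on array 1 and at 0.16 and -1.64 on array 4. Array 2 has the dyes exchanged by the labels and its sign is not settled.

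Cyp6u1 had a mean of -0.71 in S3 cells and of 1.71 in ovaries, with arrays 1, 3 and 4 of S3 all negative and both ovary arrays positive. S3 array 2 as deposited was at 0.15. The difference was not tested, and the numerators of the separately made tables may differ.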

How the results depend on the processing

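The count of negative S3 members kept its side under every alternative run, from 39 (no centring) to 56 of 72 (array 2 as deposited), and was 47 to 56 with each array left out. Their median moved to -0.066 without centring, when the median of all genes was 0.083, and was -0.30 to -0.14 with each array left out. The number of S3 genes past the threshold, 1 in the fit reported, was 0 with array 2 averaged in as deposited, 0 with array 2 turned and 0 with equal scale, and 0 to 36 with each array left out (36 without array 1). Equal scale was set by limma's normalisation to a common median absolute value. In ovaries 0 of 4 members and 0 genes passed with array 2 turned, against 3 and 926 in the fit reported.

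Of the 29 S3 genes given array by array, 21 kept their sign under the alternatives they entered and 8 did not, whose means lay between -0.13 and 0.19. Of the 29, 11 had pairs of opposite sign and did not enter the alternative without such genes. With array 2 as deposited Cyp12a5 was at -0.029, Cyp303a1 at -0.153 and Cyp4g15 at -0.0145. Cyp4d21 was at -0.0701 with array 2 turned, Cyp303a1 at -0.0121 with array medians Cyp12b2 at 0.0539 without centring and Cyp12a5 at -0.007 with spot medians. With each array left out the ranges were -0.247 to 0.348 for Cyp12a5, -0.301 to 0.327 for Cyp303a1, -0.0224 to 0.319 for Cyp305a1, -0.059 to 0.157 for Cyp4d21, -0.012 to 0.109 for Cyp4g15, -0.24 to 0.0228 for Cyp301a1 and -0.0381 to 0.337 for Cyp6d5. Ovary Cyp4g15 was at -0.486 with array 2 turned, at -0.0669 with blocks and rows centred, and at -0.245 to 0.728 with each array left out. The cause of these changes was not tested. No paired analysis was possible because S3 and ovary arrays share replicate numbers only, on different designs and materials.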
